A study of Homo sapiens with 12 samples.

Results

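The mechanistic target of rapamycin (MTOR) is a kinase that works in 2 complexes. In mTORC1 it is joined by RPTOR, which holds the substrates, and it drives protein synthesis and cell growth. In mTORC2 it is joined by RICTOR and MAPKAP1, and it phosphorylates Akt, the kinase that also relays PI3K signaling. The TSC1 and TSC2 proteins keep the small GTPase RHEB inactive, and active RHEB switches mTORC1 on at the lysosome. Akt phosphorylates TSC2 and the mTORC1 inhibitor AKT1S1, so that PI3K signaling lies upstream of mTORC1.

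The mRNA levels of 10 genes of this machinery (*MTOR*, *RPTOR*, *RICTOR*, *MLST8*, *MAPKAP1*, *DEPTOR*, *AKT1S1*, *TSC1*, *TSC2* and *RHEB*) are described here in synovial sarcoma (SS) cells. The members were all probe sets annotated with 1 of these symbols and no other gene, which gave 28 of the 54675 probe sets on the array. The lines Fuji, SYO-1, Yamato-SS and Aska-SS, which carry the SS18-SSX fusion gene of this sarcoma, were treated for 24 h with ZSTK474, a pan-PI3K inhibitor, at 0.3 or 3 µM, or with vehicle (0 µM). Each line and dose had 1 array, 12 in all, so a dose group is 4 cell lines and the spread between cultures of 1 line was not measured. All lines were grown in medium with 5% serum, and cell lines in culture hold no other tumor tissue.

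Values are quantile-normalized signal intensities of Affymetrix U133 Plus 2.0 probe sets, and changes are on the log2 scale after a floor of 12.1. The RNA is from whole cultures, so fewer cells that express a gene and less RNA per cell cannot be told apart. Apart from the sums of marker genes below, intensities of different probe sets were not set against each other, because probe brightness differs. Probe sets that end in _s_at, _a_at or _x_at may also bind related transcripts. The labelled cell type was checked with its markers, of which 9 genes were on the array and 9 passed the filter for dim probe sets. Their summed intensity ranged between 52133 and 74812 without drug, between 57678 and 82914 at the lower dose and between 58614 and 86383 at the higher dose. The brightest probe sets weigh most in these sums, with *VIM* at 30977 to 36374 and *TLE1* at 7260 to 24076 over all arrays. Of these 9 markers 5 rose and 0 fell at 3 µM against 0 µM, against 22.5% and 21.0% of all genes by their brightest probe set. The rises ran from *EMX2* at 0.90 on the log2 scale to *CD99* at 0.20 (limma adjusted p = 0.0412 and 0.0470). The part of the markers in the results was not tested. Of 10 blood cell marker genes 1 passed, *HBB*, at 50.6 to 148 over all arrays. The sums of the 10 were 353 to 639, 395 to 426 and 321 to 538 in the same order of doses. *CD14* was at the floor on 12 of 12 arrays. *HBB*, *CD3E* (23.6 to 227), *CD2* (41.2 to 98.1) and *MS4A1* (14.3 to 76.0) were at the floor on 0. One measure of RNA quality moved with dose. The log2 ratio of the 3′ to the 5′ actin probe sets lay between 0.04 and 0.16 without drug, between 0.08 and 0.39 at the lower dose and between 0.24 and 0.75 at the higher dose, with the highest value in Fuji, while that of *GAPDH* stayed between -0.13 and 0.07. Its part in the results was not tested.

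Of the 28 probe sets 21 were bright enough to be tested, with at least 1 for each of the 10 genes. The 7 dim ones, 1 each of *MTOR*, *RICTOR*, *DEPTOR* and *TSC2* and 3 of *RHEB*, had no intensity above 161 on any array, and 4 of them touched the floor. At 3 µM against 0 µM, 6 of the 21 probe sets rose and 7 fell (limma, adjusted p over 27306 probe sets), against 19.6% of all probe sets that rose and 19.8% that fell. By gene, each read from its brightest probe set, *RICTOR*, *DEPTOR*, *TSC1* and *TSC2* rose, *MTOR* and *MAPKAP1* fell, and *RPTOR*, *MLST8*, *AKT1S1* and *RHEB* did not pass. Among 12132 genes read the same way, 22.5% rose and 21.0% fell. The median log2 change over the 21 probe sets was -0.20, against 0.00 over all probe sets, and over the 10 genes by brightest probe set it was 0.03, of the other sign. The 6 probe sets of *RHEB* and 4 of *MAPKAP1* count toward the first value.

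**Figure D1:**
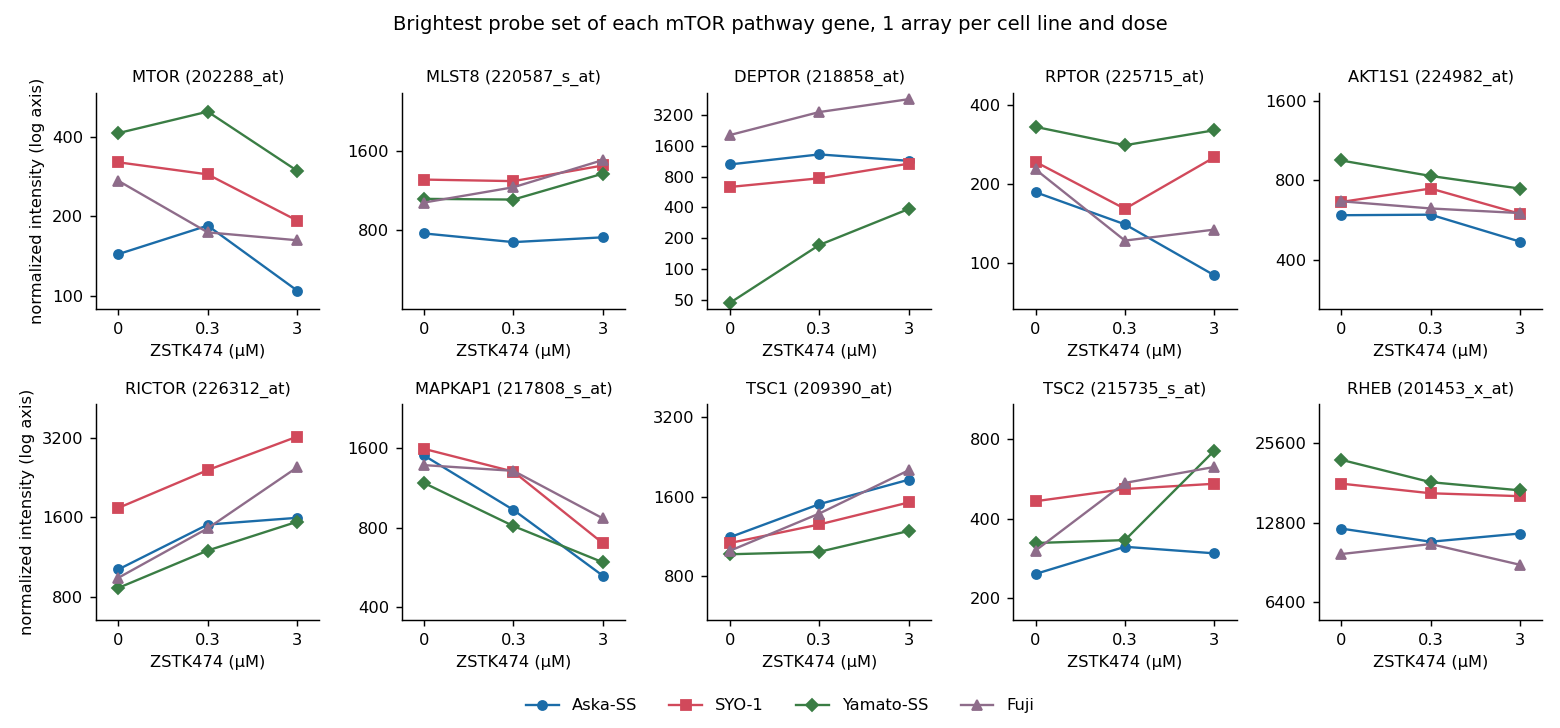
Normalized intensity (log axis) of the brightest probe set of each of the 10 genes at 0, 0.3 and 3 µM ZSTK474, with 1 line per cell line. *RICTOR* and *TSC1* climb with dose in 4 of 4 lines, *MAPKAP1* goes down in 4 of 4, and the curve of *DEPTOR* is steepest in Yamato-SS, at 46.3, 171 and 385.

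Promoter sequence is shown for 3 of the genes whose mRNA moved, the rising mTORC2 scaffold *RICTOR*, the rising *TSC2* and the falling mTORC2 subunit *MAPKAP1*. The windows are RefSeq sequence of GRCh38.p14 and end at the base before the gene's start, with motif letters in capitals. The *RICTOR* window is chr5:39074400-39074649 on the minus strand, and its capitals mark ATTGG, which is CCAAT read on the other strand, with its first base 19 bases before the start. The *TSC2* window is chr16:2047835-2047984 on the plus strand, shortened to start at the base after the neighboring gene *NTHL1*, and its capitals mark CACGTG, 114 bases before the start. The *MAPKAP1* window is chr9:125707209-125707458 on the minus strand and holds none of the motifs searched.
RICTOR: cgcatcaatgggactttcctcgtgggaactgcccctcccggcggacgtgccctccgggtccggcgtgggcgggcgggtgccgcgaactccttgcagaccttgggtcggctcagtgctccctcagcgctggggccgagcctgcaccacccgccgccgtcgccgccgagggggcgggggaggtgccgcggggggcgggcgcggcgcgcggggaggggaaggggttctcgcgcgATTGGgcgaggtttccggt
TSC2: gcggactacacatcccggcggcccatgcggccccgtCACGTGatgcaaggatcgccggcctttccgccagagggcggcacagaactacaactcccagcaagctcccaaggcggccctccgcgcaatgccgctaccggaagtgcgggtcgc
MAPKAP1: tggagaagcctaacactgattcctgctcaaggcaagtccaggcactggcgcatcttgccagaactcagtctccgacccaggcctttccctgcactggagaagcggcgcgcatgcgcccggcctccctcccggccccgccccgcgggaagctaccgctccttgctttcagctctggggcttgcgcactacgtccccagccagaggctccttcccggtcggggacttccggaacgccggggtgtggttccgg

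The motifs were searched on both strands in the 250 bases before the start of 35116 promoters, with 8 promoters for 7 of the 10 genes, not *AKT1S1*, *DEPTOR* and *MLST8*. None of these motifs contains another. TGTTTAC, a core recognized by FOXO factors, which Akt keeps out of the nucleus, was in 2.98% of all promoters and in 0 of the 8. CACGTG, the E-box letters bound by MYC and by the lysosomal regulator TFEB, was in 6.34% of all promoters and in that of *TSC2*. TTTCGCGC, an E2F motif, was in 0.439% of all promoters and in 0 of the 8. CCAAT was in 32% of all promoters and in those of *MTOR*, *RHEB* and *RICTOR*. A match is a description of letters and was not tied to the expression values.

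*RICTOR*, the scaffold without which mTORC2 does not form, rose at 3 µM in all 3 of its bright probe sets. Its brightest, 226312_at, read 1014, 1501 and 1592 in Aska-SS at 0, 0.3 and 3 µM, 1735, 2416 and 3236 in SYO-1, 862, 1196 and 1538 in Yamato-SS, and 942, 1452 and 2474 in Fuji. Within each line the order followed the dose, although the dose groups overlap because SYO-1 is high at 0 µM. Its log2 change at 3 µM was 0.94 ± 0.12 (SE, n = 4 lines, limma adjusted p = 8.62e-05), higher in 4 of 4 lines, as were 23.6% of all probe sets.

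The other bright *RICTOR* probe sets moved alike. Probe set 228248_at read 371, 388 and 486 in Aska-SS at 0, 0.3 and 3 µM, 900.5, 1122 and 1483 in SYO-1, 345, 361 and 643 in Yamato-SS, and 458, 700 and 1249 in Fuji. Probe set 226310_at read 252, 384 and 489 in Aska-SS, 494, 589 and 863 in SYO-1, 258, 300 and 425 in Yamato-SS, and 260, 271 and 484 in Fuji. In both, every line was higher at 3 µM than at 0 µM, and SYO-1 was the highest line at each dose. Their log2 changes were 0.86 ± 0.15 (SE, limma adjusted p = 0.000833) and 0.85 ± 0.13 (SE, limma adjusted p = 0.000297). The line with the largest change differed, Fuji in the first 2 probe sets (1.39 and 1.45) and Aska-SS in the last (0.96). Fuji at 3 µM was also the array with the actin ratio of 0.75. Without Fuji the 3 probe sets kept their calls at 3 µM. The actin ratio was also higher at 3 than at 0 µM in the other lines. It went from 0.04 to 0.24 in Aska-SS, 0.16 to 0.28 in SYO-1 and 0.05 to 0.26 in Yamato-SS. Leaving out Fuji therefore does not separate this ratio from dose, and its part was not tested.

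*MAPKAP1* encodes SIN1, the mTORC2 subunit that presents substrates to the kinase, and it fell at 3 µM in 4 of 4 tested probe sets. The brightest, 217808_s_at, read 1504, 935 and 526 in Aska-SS at 0, 0.3 and 3 µM, 1594, 1306 and 699 in SYO-1, 1183, 812 and 591 in Yamato-SS, and 1383, 1315 and 868 in Fuji. The 4 arrays at 3 µM lay below the 4 at 0 µM without overlap. Its log2 change was -1.09 ± 0.13 (SE, n = 4 lines, limma adjusted p = 7.13e-05), from -1.52 in Aska-SS to -0.67 in Fuji. The change was negative in 4 of 4 lines for each of the 4 probe sets, as for 23.9% of all probe sets.

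Probe set 229846_s_at was the most even of all members between lines. It read 1354, 1053 and 771 in Aska-SS at 0, 0.3 and 3 µM, 1267, 1072 and 825 in SYO-1, 1216, 980 and 701 in Yamato-SS, and 1179, 1010 and 657 in Fuji. The 3 dose groups did not overlap at all, and the log2 change at 3 µM was -0.77 ± 0.09 (SE, limma adjusted p = 7.27e-05). Probe set 229845_at read 431, 241 and 160 in Aska-SS, 327, 255 and 176 in SYO-1, 602, 357 and 238 in Yamato-SS, and 369, 277 and 272 in Fuji. Its log2 change was -1.02 ± 0.17 (SE, limma adjusted p = 0.000519), and in Fuji nearly the whole difference was present at 0.3 µM.

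The weakest *MAPKAP1* probe set was 222426_at, which read 718, 631 and 571 in Aska-SS, 686, 618 and 463 in SYO-1, 775, 655 and 427 in Yamato-SS, and 437, 568 and 393 in Fuji. The groups overlap through Fuji, which was low at 0 µM and higher at 0.3 µM. The log2 change at 3 µM was -0.48 ± 0.14 (SE, limma adjusted p = 0.0149). It did not pass without SYO-1 (-0.45, limma adjusted p = 0.0734) or without Yamato-SS (-0.35, limma adjusted p = 0.0998).

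**Figure D2:**
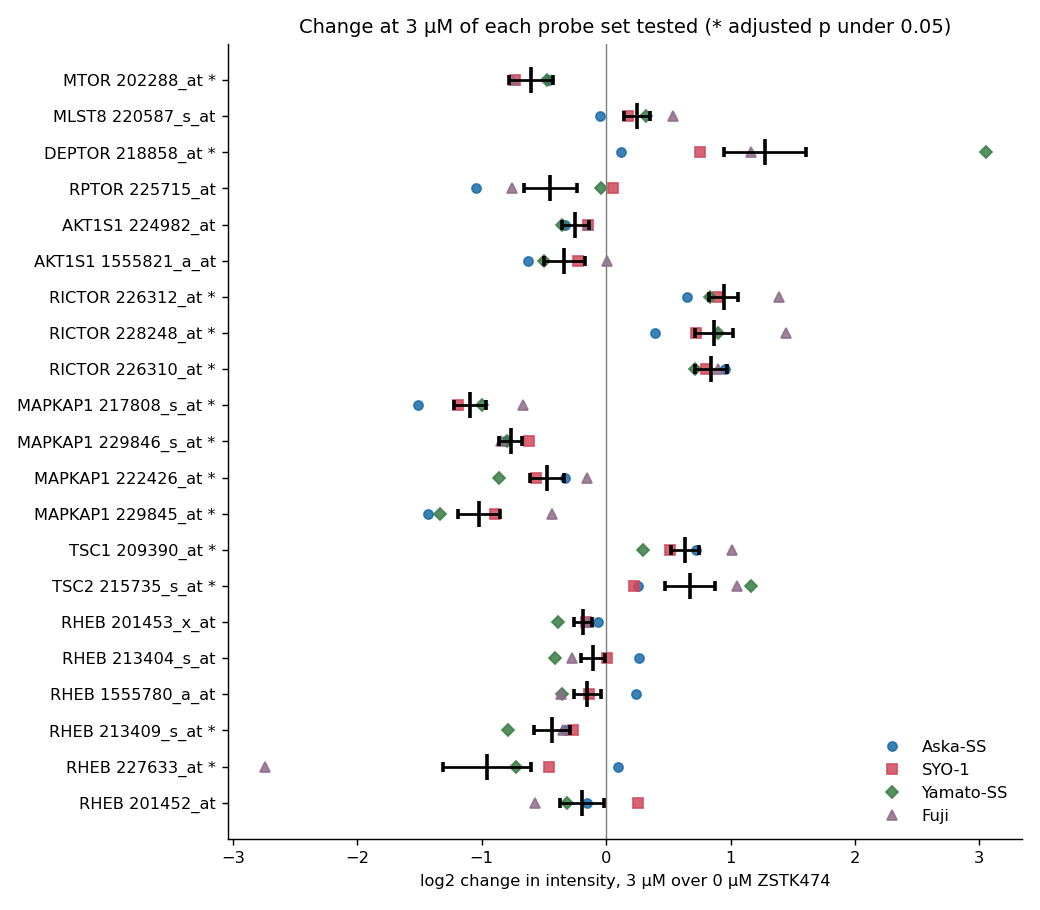
Log2 change at 3 µM against 0 µM of the 21 tested probe sets, with 1 point per cell line and a bar for the fitted change with its standard error. The 3 probe sets of *RICTOR* lie right of 0 in 4 of 4 lines and the 4 of *MAPKAP1* lie left of 0 in 4 of 4 lines, while single lines stand apart for *DEPTOR* (Yamato-SS, 3.06) and for *RHEB* 227633_at (Fuji, -2.75).

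*RPTOR*, the mTORC1 counterpart of *RICTOR*, had 1 probe set, 225715_at. It read 186, 140 and 90.0 in Aska-SS at 0, 0.3 and 3 µM, 242, 161 and 252 in SYO-1, 329, 280 and 320 in Yamato-SS, and 227, 122 and 134 in Fuji. At 3 µM it was lower than at 0 µM in Aska-SS and Fuji and within 0.06 log2 units in the other lines, and the change of -0.45 ± 0.22 did not pass (SE, limma adjusted p = 0.120). At 0.3 µM it was lower than at 0 µM in 4 of 4 lines, as were 18.6% of all probe sets, and that change of -0.53 ± 0.22 did not pass (SE, limma adjusted p = 0.156).

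Set side by side, the scaffold subunits of the 2 complexes had changes at 3 µM that lay apart in each line. The log2 change of *RICTOR* minus that of *RPTOR* was 1.39 ± 0.64 (SD, n = 4 lines), from 0.84 to 2.15, and positive in 4 of 4 lines. The exact two-sided sign-flip permutation test gave p = 0.13, the smallest that 4 lines allow. The mTORC2 subunit *MAPKAP1* went the other way from its partner *RICTOR*, and its change minus that of *RPTOR* was -0.65 ± 0.59 (SD, n = 4 lines, exact permutation p = 0.25), from -1.25 to 0.09. Subunits of mTORC2 thus moved in both directions.

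The subunits that both complexes share gave no common direction either. *MTOR*, the kinase itself, read 144, 185 and 105 in Aska-SS at 0, 0.3 and 3 µM in probe set 202288_at, 321, 289 and 193 in SYO-1, 414, 500 and 298 in Yamato-SS, and 273, 174 and 162 in Fuji. It was lowest at 3 µM in 4 of 4 lines, although the groups overlap because the lines differ in level. The log2 change at 3 µM was -0.60 ± 0.18 (SE, n = 4 lines, limma adjusted p = 0.0163), between -0.75 and -0.46. It did not pass without SYO-1 (-0.56, limma adjusted p = 0.0814) or without quantile normalization (-0.41, limma adjusted p = 0.0821), and with array weights its adjusted p by limma was 0.0689.

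*MLST8*, which binds the kinase domain in both complexes, read 776, 719 and 750 in Aska-SS at 0, 0.3 and 3 µM in probe set 220587_s_at, 1242, 1225 and 1405 in SYO-1, 1049, 1043 and 1308 in Yamato-SS, and 1016, 1162 and 1473 in Fuji. The 3 µM array was the highest in each line but Aska-SS, and the change of 0.25 ± 0.11 did not pass (SE, limma adjusted p = 0.0835). Without quantile normalization the change was 0.28 and passed (limma adjusted p = 0.0475).

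*DEPTOR*, a protein that binds MTOR and inhibits it in both complexes, rose at 3 µM with the widest spread of the 10 genes. Probe set 218858_at read 1052, 1320 and 1142 in Aska-SS at 0, 0.3 and 3 µM, 633, 770 and 1071 in SYO-1, 46.3, 171 and 385 in Yamato-SS, and 2041, 3429 and 4585 in Fuji. Yamato-SS started lowest and Fuji highest, and Aska-SS hardly differed between 3 and 0 µM. The Yamato-SS array at 0 µM had a log2 value of 5.53, below the level of 6.03 that the filter asked of the mean over arrays. The log2 change was 1.27 ± 0.33 (SE, n = 4 lines, limma adjusted p = 0.00869), made of 3.06 in Yamato-SS, 1.17 in Fuji, 0.76 in SYO-1 and 0.12 in Aska-SS. Without Yamato-SS it was 0.67 (limma adjusted p = 0.0138), and without a filter on dim probe sets it did not pass (limma adjusted p = 0.0817).

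*AKT1S1*, or PRAS40, is an mTORC1 inhibitor that lets go of RPTOR when Akt phosphorylates it. Its probe set 224982_at read 590, 592 and 468 in Aska-SS at 0, 0.3 and 3 µM, 662, 744 and 597 in SYO-1, 951, 831 and 744 in Yamato-SS, and 666, 625 and 601 in Fuji. The 3 µM array was the lowest in each line by a small margin, and the change of -0.25 ± 0.11 did not pass (SE, limma adjusted p = 0.0847). The dimmer 1555821_a_at had a change of -0.34 ± 0.16 (SE, limma adjusted p = 0.127), lower in 3 of 4 lines.

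Both genes of the TSC brake rose at 3 µM. *TSC1*, which stabilizes TSC2, read 1123, 1499 and 1856 in Aska-SS at 0, 0.3 and 3 µM in probe set 209390_at, 1068, 1256 and 1522 in SYO-1, 968, 988 and 1186 in Yamato-SS, and 997, 1381 and 2015 in Fuji. The 4 arrays at 3 µM lay above the 4 at 0 µM, and the order followed the dose in each line. The log2 change was 0.64 ± 0.11 (SE, n = 4 lines, limma adjusted p = 0.000914). Of the 21 probe sets, *TSC1* alone was higher without overlap between 3 and 0 µM, as were 4.98% of all probe sets, and 3 of *MAPKAP1* were lower without overlap, as were 5.89%.

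*TSC2*, the subunit that stimulates GTP hydrolysis by RHEB, read 247, 313 and 295 in Aska-SS at 0, 0.3 and 3 µM in probe set 215735_s_at, 466, 518 and 543 in SYO-1, 323, 332 and 725 in Yamato-SS, and 303, 547 and 629 in Fuji. The difference was large in Yamato-SS and Fuji, small in the other lines, and the groups overlap. The log2 change was 0.67 ± 0.20 (SE, limma adjusted p = 0.0170). It did not pass without Yamato-SS (0.51, limma adjusted p = 0.0541) or without Fuji (0.55, limma adjusted p = 0.0840), and likewise without a filter on dim probe sets or with array weights (limma adjusted p = 0.0839 and 0.0607).

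*RHEB*, the GTPase that activates mTORC1, had 6 tested probe sets that did not give 1 answer. The brightest, 201453_x_at, read 12140, 10824 and 11629 in Aska-SS at 0, 0.3 and 3 µM, 17983, 16531 and 16116 in SYO-1, 22147, 18212 and 16956 in Yamato-SS, and 9718, 10605 and 8847 in Fuji. The 3 µM array was lower than the 0 µM array in 4 of 4 lines, by a log2 change of -0.19 ± 0.07 that did not pass (SE, limma adjusted p = 0.0594). Probe sets 213404_s_at, 1555780_a_at and 201452_at had changes of -0.10, -0.15 and -0.20 that did not pass, and that of 201452_at was 0.010 without quantile normalization.

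The other *RHEB* probe sets fell by the test, with single lines at the edge. Probe set 213409_s_at read 404, 271 and 321 in Aska-SS at 0, 0.3 and 3 µM, 568, 414 and 472 in SYO-1, 880, 691 and 510 in Yamato-SS, and 305, 305 and 240 in Fuji. It was lower at 3 µM than at 0 µM in 4 of 4 lines, with overlapping groups and a log2 change of -0.43 ± 0.15 (SE, limma adjusted p = 0.0330). It did not pass without Aska-SS (-0.47, limma adjusted p = 0.0625), SYO-1 (-0.49, limma adjusted p = 0.0605) or Yamato-SS (-0.31, limma adjusted p = 0.172). Nor did it pass without quantile normalization (-0.32, limma adjusted p = 0.102), and 5 of 13 alternatives kept its call.

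Probe set 227633_at read 172, 359 and 183 in Aska-SS, 534, 435 and 390 in SYO-1, 465, 432 and 281 in Yamato-SS, and 297, 128 and 44.3 in Fuji. Fuji lost most of its signal at this probe set, which the other 5 probe sets of *RHEB* did not show there. The log2 change was -0.96 ± 0.36 (SE, limma adjusted p = 0.0498) and without Fuji -0.36 (limma adjusted p = 0.277). It did not pass without SYO-1 (-1.13, limma adjusted p = 0.0772) or without Yamato-SS (-1.03, limma adjusted p = 0.100). Nor did it pass without quantile normalization (-0.83, limma adjusted p = 0.0895), and 4 of 13 alternatives kept its call.

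At the lower dose of 0.3 µM against 0 µM, 1 of the 21 probe sets rose and 0 fell by limma, against 3.08% and 2.24% of all probe sets. At an unadjusted p under 0.05 there were 4 higher and 5 lower, against 12.6% and 11.6% of all probe sets at that threshold. The one that rose was *RICTOR* 226312_at, by 0.53 ± 0.12 on the log2 scale (SE, limma adjusted p = 0.0275), with values of 0.47 to 0.62 in the 4 lines. It did not pass when any 1 line was left out, with limma adjusted p of 0.0699 to 0.127 and changes of 0.51 to 0.56. The *MAPKAP1* probe sets 217808_s_at, 229846_s_at and 229845_at were lower at 0.3 than at 0 µM in 4 of 4 lines, by -0.40, -0.28 and -0.59, and did not pass (limma adjusted p = 0.0928, 0.0887 and 0.0611).

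Between 3 and 0.3 µM, the 3 *RICTOR* probe sets were higher at 3 µM and 2 of *MAPKAP1* were lower, and no other member passed. Of all probe sets 4.98% were higher and 6.53% lower. The *RICTOR* changes were 0.41 for 226312_at (limma adjusted p = 0.0420), 0.60 for 228248_at (limma adjusted p = 0.0262) and 0.56 for 226310_at (limma adjusted p = 0.0163). The *MAPKAP1* changes were -0.70 for 217808_s_at (limma adjusted p = 0.00764) and -0.48 for 229846_s_at (limma adjusted p = 0.00823). *MAPKAP1* 217808_s_at did not pass without SYO-1 (-0.63, limma adjusted p = 0.0663), nor 229846_s_at without Aska-SS (-0.49, limma adjusted p = 0.0531). Whichever line was left out, 0 or 1 *RICTOR* probe set and 1 to 3 lower probe sets passed. The comparison shares its 3 µM arrays with that of 3 and 0 µM, so the values do not stand as separate evidence.

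The cell lines differed in level at 19 of the 21 probe sets (limma moderated F, adjusted p under 0.05), against 76.3% of all probe sets. The exceptions were *MAPKAP1* 229846_s_at (limma adjusted p = 0.325) and 222426_at (limma adjusted p = 0.0669). Between single pairs, 49.2% of all probe sets differed for Aska-SS and SYO-1, 55.7% for Aska-SS and Yamato-SS, 40.8% for Aska-SS and Fuji, 46.4% for SYO-1 and Yamato-SS, 40.8% for SYO-1 and Fuji, and 52.9% for Yamato-SS and Fuji. *DEPTOR* spanned the most, with a geometric mean over the 3 doses of 3178 in Fuji, 1166 in Aska-SS, 805 in SYO-1 and 145 in Yamato-SS. Fuji was above Aska-SS by 1.45 log2 units (limma adjusted p = 0.00884) and SYO-1 above Yamato-SS by 2.47 (limma adjusted p = 0.000176), while the step of 0.53 from Aska-SS to SYO-1 did not pass (limma adjusted p = 0.268).

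*RHEB* ran in another order, which its probe sets shared in part. In 201453_x_at SYO-1 was above Aska-SS by 0.55 log2 units (limma adjusted p = 0.000144) and Aska-SS above Fuji by 0.25 (limma adjusted p = 0.0311), while Yamato-SS exceeded SYO-1 by 0.17, which did not pass (limma adjusted p = 0.114). Yamato-SS also led in *MTOR*, by 0.60 over SYO-1 (limma adjusted p = 0.0296). The steps from SYO-1 to Fuji and from Fuji to Aska-SS did not pass (limma adjusted p = 0.134 and 0.0718). Aska-SS minus SYO-1 was -0.90 and passed (limma adjusted p = 0.00281). *RPTOR* had the same order of lines, and none of its neighbors differed by the test (limma adjusted p = 0.104 to 0.521).

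*RICTOR* was highest in SYO-1 in its 3 bright probe sets. In 226312_at SYO-1 was above Fuji by 0.67 log2 units (limma adjusted p = 0.00170), and the neighbors among Fuji, Aska-SS and Yamato-SS did not pass (limma adjusted p = 0.376 and 0.222). Yamato-SS minus Fuji, not neighbors in this order, was -0.36 and passed (limma adjusted p = 0.0381). *MLST8* was lowest in Aska-SS, 0.59 below Yamato-SS (limma adjusted p = 0.00122), and *TSC2* was also lowest there, again 0.59 below Yamato-SS (limma adjusted p = 0.0439). For *TSC1* no neighbors in the order passed (limma adjusted p = 0.0983 to 0.766). Among lines further apart, Aska-SS minus Yamato-SS was 0.49 and Yamato-SS minus Fuji was -0.43 (limma adjusted p = 0.00703 and 0.0150). Aska-SS minus SYO-1 was 0.20 and did not pass (limma adjusted p = 0.218).

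**Figure D3:**
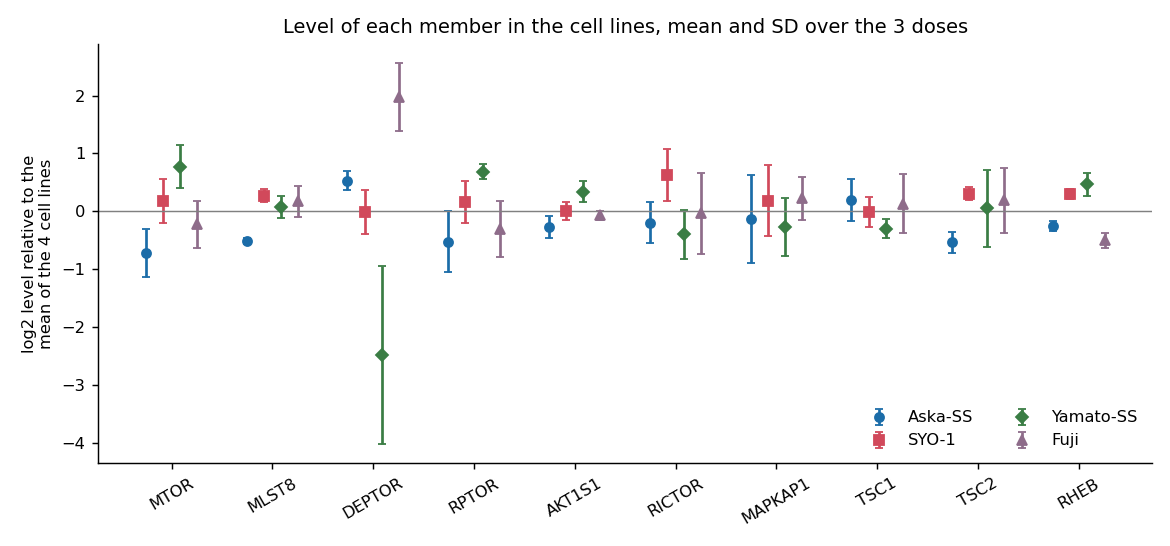
Level of the brightest probe set of each of the 10 genes in the 4 cell lines, as the mean log2 intensity over the 3 doses with its SD (n = 3 arrays), relative to the mean of the 4 lines for that gene. *DEPTOR* has the widest range between lines, 145 in Yamato-SS to 3178 in Fuji as geometric means.

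The wider pathway was read from 55 genes that act on or below the complexes, of which 51 were tested by their brightest probe set. At 3 µM against 0 µM 10 rose, 9 fell and 32 did not pass, with a median log2 change of 0.09. Of all genes read by their brightest probe set 22.5% rose and 21.0% fell. The lists were chosen from pathway knowledge, with earlier results of these data known. They were small, so they are given as counts.

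Among 7 partners and assembly factors, 0 rose and 3 fell, against 22.5% and 21.0% of all genes. *TBC1D7*, the further subunit of the TSC complex, fell by 0.64 on the log2 scale (limma adjusted p = 0.00329), so that it moved against *TSC1* and *TSC2*. *TELO2* and *TTI1*, chaperones that assemble MTOR and related kinases, had changes of -0.50 and -0.33 (limma adjusted p = 0.0158 and 0.0202). *TELO2* did not pass without Aska-SS, SYO-1 or Fuji (limma adjusted p = 0.0596, 0.0630 and 0.0760), and *TTI1* without Aska-SS, SYO-1 or Yamato-SS (limma adjusted p = 0.0727, 0.114 and 0.0772). *PRR5L*, an mTORC2-associated protein, had -0.59 and did not pass (limma adjusted p = 0.0841).

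Of 11 genes of the Rag, Ragulator and folliculin machinery, which brings mTORC1 to the lysosome when amino acids are present, 4 rose and 0 fell, against 22.5% and 21.0% of all genes. Without quantile normalization 5 rose and 1 fell, and without Yamato-SS 1 fell. The Rag GTPases *RRAGC* and *RRAGB* changed by 0.44 and 0.70 (limma adjusted p = 0.00189 and 0.00260). *FLCN*, which stimulates GTP hydrolysis by RagC, changed by 0.57 and its partner *FNIP1* by 0.80 (limma adjusted p = 0.00670 and 0.0125). *FNIP1* was higher in 3 of 4 lines and did not pass without Aska-SS (0.72, limma adjusted p = 0.0767) or without Yamato-SS (0.77, limma adjusted p = 0.0506).

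Of 11 genes of GATOR1, GATOR2 and KICSTOR, which pass amino acid signals to the Rag GTPases, 2 rose and 3 fell, near the 22.5% and 21.0% of all genes. GATOR2 subunits went both ways, with *SEH1L* at -0.55 and *SEC13* at -0.82 but *WDR59* at 0.64 (limma adjusted p = 0.000154, 0.000501 and 0.000305). So did KICSTOR, with *KPTN* at -0.79 and *KICS2* at 1.10 (limma adjusted p = 0.00223 and 0.00514). *SEH1L* and *SEC13* also belong to the nuclear pore. *KICS2* was named after its value was seen, ranged from 0.20 to 2.40 between lines, and was 0.67 without Fuji (limma adjusted p = 0.0154).

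Of 10 mTORC1 substrates 2 rose and 2 fell, near the shares of all genes. *EIF4EBP1*, the repressor of cap-dependent translation, fell by 1.37 (limma adjusted p = 3.21e-05), and *RPS6KB2*, an S6 kinase, fell by 0.46 (limma adjusted p = 0.00980). *MAF1*, a repressor of RNA polymerase III, rose by 0.67 (limma adjusted p = 0.000874) and *ULK1*, the kinase that starts autophagy, by 0.54 (limma adjusted p = 0.0332). *ULK1* did not pass without Aska-SS (0.51, limma adjusted p = 0.135) or without Yamato-SS (0.40, limma adjusted p = 0.154). At 0.3 µM *EIF4EBP1* was the only one of the 51 that passed, at -0.58 (limma adjusted p = 0.0403), and by gene 3.88% of all genes rose and 2.91% fell there.

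Of 5 mTORC2 substrates 0 rose and 1 fell, against 22.5% and 21.0% of all genes. The one that fell was *AKT1*, by 0.57 on the log2 scale (limma adjusted p = 0.00271). *PRKCA*, *PRKCE* and *SGK1*, further kinases that mTORC2 phosphorylates, had 0.18, 0.20 and -0.17 and did not pass (limma adjusted p = 0.161, 0.285 and 0.403). Of the AMPK subunits and *STK11*, which slow mTORC1 when energy is short, 2 of 7 rose and 0 fell. Of all genes 22.5% rose and 21.0% fell. The 2 that rose were *PRKAB2* by 0.71 and *PRKAG1* by 0.49 (limma adjusted p = 0.00161 and 0.00252), while *PRKAA1* and *PRKAG2* had 0.23 and -0.10 (limma adjusted p = 0.283 and 0.462).

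**Figure D4:**
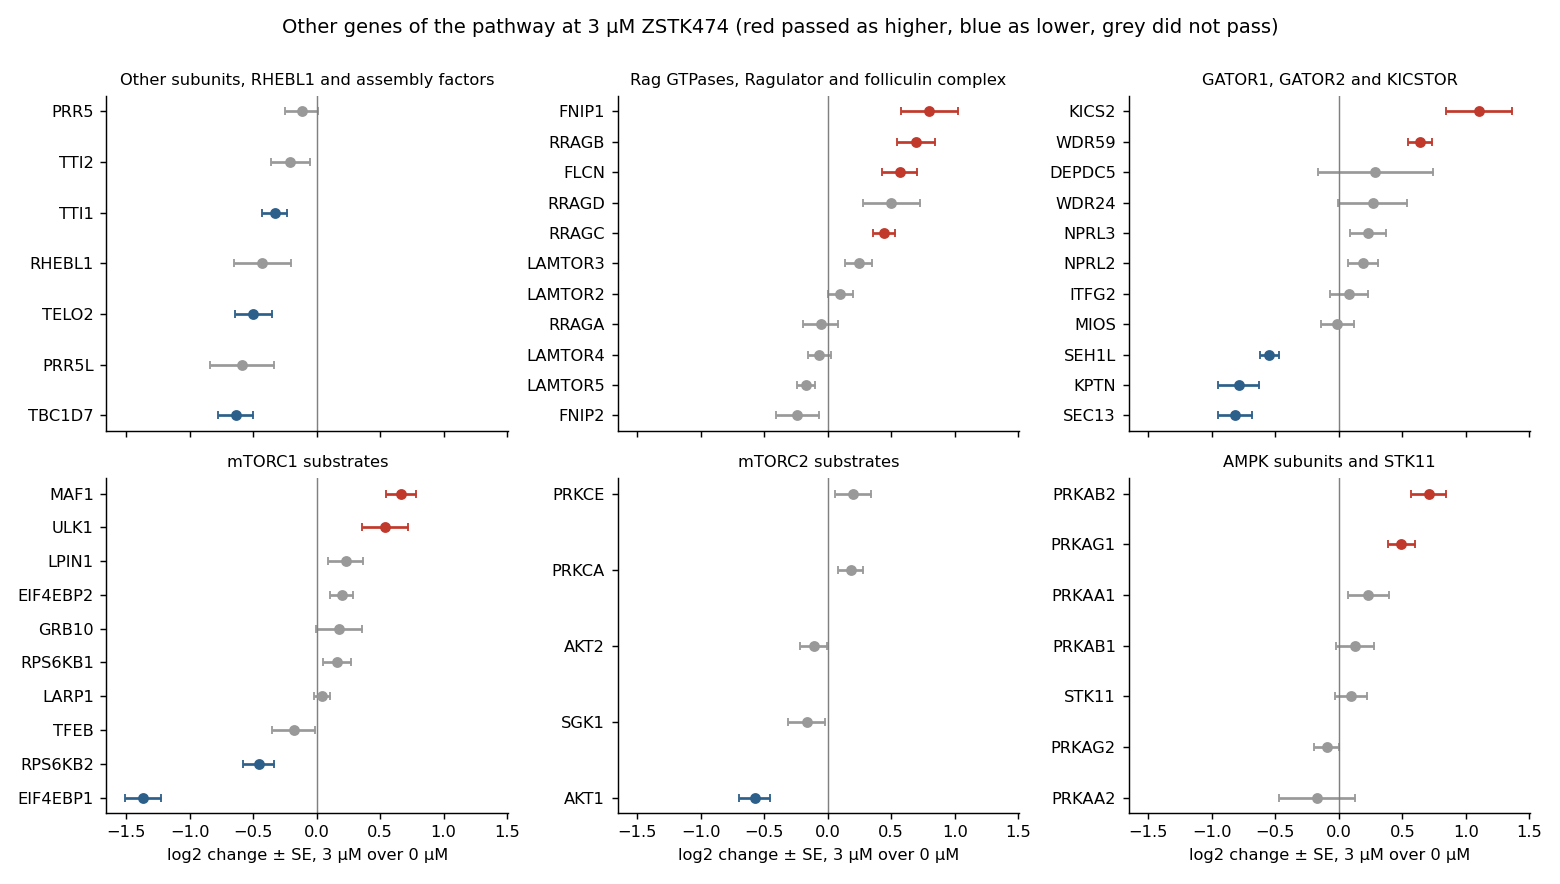
Log2 change at 3 µM against 0 µM of the 51 tested pathway genes by list, as fitted changes (points) with standard errors (bars), red where higher and blue where lower at an adjusted p under 0.05 and grey otherwise. Rag and folliculin genes that passed lie right of 0 (4 of 11), the partners and assembly factors that passed lie left of 0 (3 of 7), and the GATOR and KICSTOR genes lie on both sides.

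The genes whose changes were most like those of *RICTOR* 226312_at, over its 8 log2 changes in 4 lines at 0.3 and 3 µM, were *HNRNPA1*, *SPG11*, *BOD1L1* and *TMEM106B*. Their root mean square differences were 0.12, 0.12, 0.13 and 0.13 log2 units. The *HNRNPA1* probe set ends in _x_at, and near-identical copies of that gene exist, so its name is uncertain. For *MAPKAP1* 217808_s_at they were *NDUFS6*, *MTA2*, *RRS1* and *PPIF*, at 0.20, 0.20, 0.20 and 0.21. They were picked by this likeness among all tested genes, so it is a description.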

How the data were processed

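The deposited table holds MAS5 signal intensities of 54675 probe sets on 12 arrays, which the authors scaled on a linear scale to a common trimmed mean. The methods name quantile normalization, but the deposited columns differ in median (60.1 to 85.3), so quantile normalization was applied here. Values under the 20th percentile were raised to it. Control probe sets (62) were left out, and those whose log2 values averaged above the median were tested (27306). Gene names come from the platform annotation, with 41097 probe sets of 1 symbol, 1801 of several and 11777 unnamed. No genome build is named for the deposited values, and promoters were matched by symbol.

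The model was fitted with limma 3.58.1 in R 4.3.3, with cell line as a block, dose as a factor, moderated variances with a trend and Benjamini-Hochberg adjustment over all tested probe sets, called below 0.05. Each replicate number stands for 1 cell line, which pairs the arrays. Deviations from the dose means correlated at 0.788 to 0.907 between arrays of 1 line and at -0.415 to -0.103 between lines. Subtracting the mean of the 4 lines pushes the values between lines below 0 by itself, so their sign carries no information. P-values of this fit set an effect against the spread left after cell line and dose are fitted, moderated over probe sets. For a dose comparison that spread is how unequally the lines changed. Precision is limited by how few arrays there are. The fit was also run on simulated data with independent normal noise and planted changes equal in all lines. Such data cannot show how the fit behaves when lines respond unequally.

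Members and lists were chosen with earlier results of these data known. Array values are given for the brightest probe set of each member and for any other that passed between doses, and pathway genes are, per list, the 4 of lowest adjusted p at 3 µM, with *KICS2* added after its value was seen. The 4 genes with the smallest root mean square difference are named beside the rising and the falling member with the smallest adjusted p. Alternatives left out quantile normalization, added 16 before log2 in place of a floor, set the floor at the 40th percentile, dropped the filter or set it at the 65th percentile, and used 1 probe set per gene, no block, no variance trend, array weights, the arrays of 2 doses alone and leaving out each line.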

Additional observations from a re-analysis of the deposited data

Results flagged for a closer look

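Among 105 groups of 4 values (intensities at a dose and log2 changes of the tested members), 4 held a line far from the other 3 by Dixon's test, and chance gives about 1 in 20 groups. *RICTOR* 226310_at at 0 µM had an intensity of 494 in SYO-1, with the other lines at 252 to 260. *MAPKAP1* 222426_at at 0.3 µM had a log2 change of 0.38 in Fuji, with the other lines at -0.24 to -0.15. *RHEB* 213409_s_at at 3 µM had a log2 change of -0.79 in Yamato-SS, with the other lines at -0.35 to -0.27. *RHEB* 227633_at at 0.3 µM had an intensity of 128 in Fuji, with the other lines at 359 to 435.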

How the results depend on the processing

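At 3 µM against 0 µM the 6 rises were 5 or 6 and the 7 falls 3 to 6 when 1 line was left out. The falls were 4 without quantile normalization, 2 with 1 probe set per gene and 4 with array weights. Rises numbered 7 without quantile normalization, where *MLST8* also passed. Without a filter 4 rises and 5 falls were called. Without quantile normalization the median log2 change of all probe sets was 0.11, and 59.7% of the calls were rises, against 49.8%. With no replicate block, where the differences between lines enter the spread, 0 rises and 2 falls were called at 3 µM against 0 µM, and 0 rises and 0 falls in the other dose comparisons. Those kept were *MAPKAP1* 217808_s_at and 229846_s_at (limma adjusted p = 0.0338 and 0.0221), which passed under every alternative run for them. *RICTOR* and *TSC1* were lost under no other alternative at 3 µM, while *DEPTOR* was also lost without a filter. *TSC2* was also lost without a filter, with array weights, without Yamato-SS and without Fuji.

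The 1 rise at 0.3 µM was lost (0) when any line was left out, without a filter and without a variance trend. Falls at 0.3 µM numbered 1 with the filter at the 65th percentile, 3 with array weights and 1 with the arrays of 2 doses alone. Between 3 and 0.3 µM the 3 rises became 1 without a filter, with 1 probe set per gene and without a trend, and 0 to 1 with a line left out. The 2 falls there became 1 without a filter and with 1 probe set per gene, 4 with the 65th percentile, array weights or 2 doses alone, and 1 to 3 with a line left out. Between lines 19 became 10 with 1 probe set per gene, where 10 genes were tested, and 13 to 19 with a line left out.

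Log2 changes that turned sign were those of *RHEB* 201452_at at 3 µM (0.010 without quantile normalization), of *MTOR* at 0.3 µM (0.068 without quantile normalization, 0.029 with array weights, -0.18 to 0.16 with a line left out), of *RHEB* 227633_at at 0.3 µM (0.093 with array weights, -0.55 to 0.22 with a line left out), of *MAPKAP1* 222426_at at 0.3 µM (-0.19 to 0.014) and of *RHEB* 213409_s_at between 3 and 0.3 µM (-0.20 to 0.027). The positive ends came without Fuji for the first pair of ranges and without Yamato-SS for the others. None of these had passed in that comparison, and the cause was not tested. Of 265 repeats of the 19 called pathway genes, 230 kept the call, 35 lost it and 0 turned, 18 of the losses with no replicate block. With 3 lines the exact permutation test cannot go below 0.25.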
